A study of Mus musculus with 2 samples.

Results

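The genes described here are 52 mouse genes of the lysosome, chosen by symbol for what their products are known to do. The rule uses no measured value, but earlier results of these data were known when the genes were chosen. They comprise 4 activators and carriers that work with lysosomal enzymes, 19 hydrolases, 1 peptidase, 10 lysosomal membrane proteins, 15 subunits and accessory proteins of the vacuolar proton pump (V-ATPase) and 3 transcription factors of the TFEB family. Every symbol matched 1 annotated gene, and the 52 were compared with the 22015 nuclear-encoded protein-coding genes among 55536 annotated genes. RNA came from the cytosolic fraction of macrophages derived from bone marrow of C57BL/6J mice, stimulated for 75 minutes with 100 ng/ml lipid A, the Toll-like receptor 4 ligand of bacterial lipopolysaccharide. Total RNA, 1 µg per library, was depleted of ribosomal RNA and sequenced in 2 libraries (biological replicates 1 and 2), which form the only group. The labels name the same donor for both, record neither sex nor age, and do not say whether the cells came from separate animals or cultures, so each SD (n = 2) may be technical. Cells without lipid A and other fractions were not analysed here, so the values are levels in stimulated cells and not effects of stimulation, and no test between groups could be made.

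Lysosomes degrade proteins, lipids and polysaccharides that reach them by endocytosis, phagocytosis and autophagy, and macrophages are rich in them. Their soluble enzymes are made at the endoplasmic reticulum and tagged with mannose phosphate for delivery. They work at the acid pH that the V-ATPase maintains, while glycosylated membrane proteins line the organelle and transporters export the products. TFEB, TFE3 and MITF bind the CLEAR element, an E-box variant near the start of many lysosomal genes, and mTORC1 on the lysosomal surface holds TFEB in the cytosol when nutrients are plentiful.

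Assigned to genes were 55596625 expected counts in replicate 1 and 50157146 in replicate 2. All 8 macrophage markers reached 1 TPM (a level corrected for transcript length and scaled to the same sum in each library), and their summed level was 5092 TPM and 5165 TPM in the libraries. Of 33 markers of osteoclasts, neutrophils, T, B, erythroid, mast and stromal or endothelial cells, 2 reached 1 TPM, Acp5 (9.23 ± 3.06 TPM) and Ngp (2.32 ± 1.09 TPM), and 6 had 0 counts in both libraries. Ly6g, Cd3g and Calcr were among these 6, though a second deposited quantification, described below, gave Cd3g 0.00344 and 0.00158 TPM. Other markers of the same lists had counts, such as the neutrophil marker Ltf (74 and 177 in replicates 1 and 2) and the osteoclast marker Ctsk (106 and 115). The libraries differed in RNAs that stay in the nucleus, with Malat1 at 158 TPM in replicate 1 and 799 TPM in replicate 2 and Neat1 at 14.8 and 64.6 TPM. The 7SL genes Rn7s1 and Rn7s2, the RNA of the signal recognition particle, took 69.8% and 60.5% of all TPM, and protein-coding genes 21.6% and 21.9%.

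All 52 lysosomal genes reached a mean of 1 TPM, a level that 39.3% of protein-coding genes reached. At 100 TPM or more stood 13 of the 52, against 1.56% of protein-coding genes. The 52 had a median level of 50.1 TPM in replicate 1 and 61.1 in replicate 2 (55.6 ± 7.76 TPM). The median of the protein-coding genes at 1 TPM or more was 6.10 ± 0.117 TPM, and that of all protein-coding genes 0.105 TPM. Together the 52 held 3.69% and 4.71% of the protein-coding TPM in replicates 1 and 2. In bulk RNA such as this, more cells holding an mRNA and more mRNA per cell cannot be told apart.

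From Psap to Arsb the mean levels spanned 1035-fold. Of the 51 neighbouring pairs in the order of mean TPM, the ranges of the 2 libraries overlapped in 42, so most neighbours were not separated by range. Both genes of a pair were measured in the same 2 libraries, so an order can hold in each library although the ranges overlap. The 9 separated pairs were Psap over Cd68, Atp6v0c over Laptm5, Hexa over Cd63, Npc2 over Atp6v1a, Atp6v1a over Lamp2, Atp6v1f over Atp6v0e, Atp6v0e over Atp6v1c1, Gla over Atp6v1h and Mcoln1 over Mitf. Counts were deep for every gene, with means from 776.5 (Tfeb) to 964318 (Psap), so the difference between libraries, not counting error, sets the precision.

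**Figure D1:**
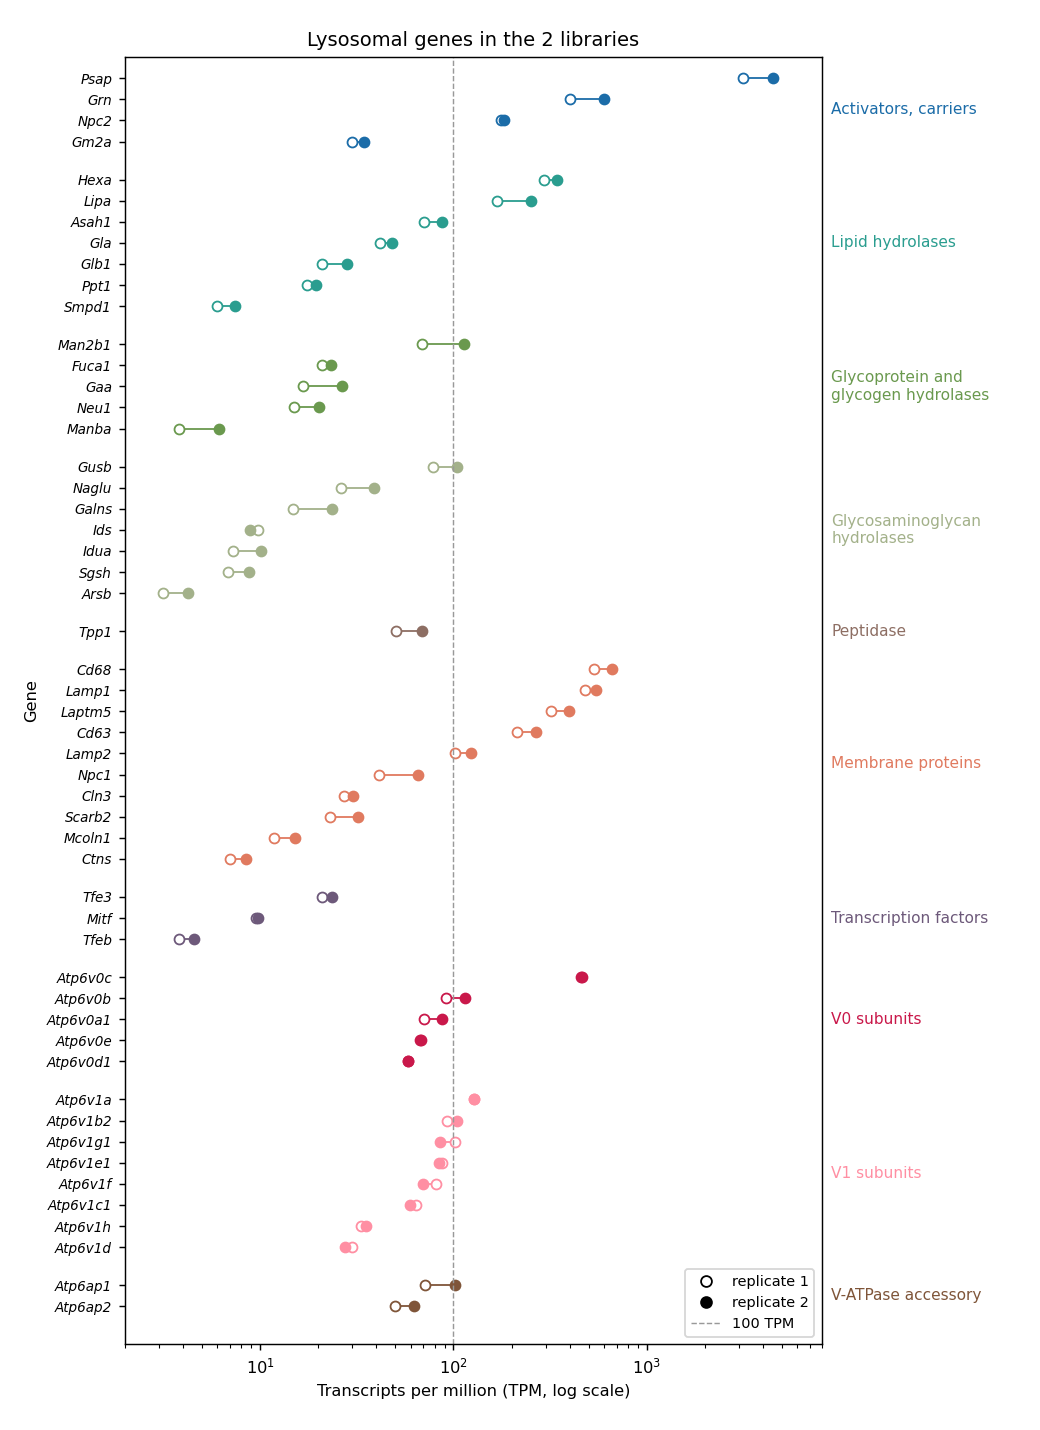
Level of each of the 52 genes in TPM (log axis), grouped by role, with replicate 1 as an open and replicate 2 as a filled circle joined by a line; the dashed line marks 100 TPM. Psap stands apart at 3156 and 4500 TPM, most filled circles lie to the right of the open ones, and those of 5 of the 8 V1 subunits, and of Ids, lie to the left.

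The activators and carriers held the most abundant lysosomal mRNA of the set. Psap encodes prosaposin, which is cleaved into the saposins that lift sphingolipids out of membranes for their hydrolases (mm10, chromosome 10, 60277627 to 60302597). It was at 3156 TPM in replicate 1 and 4500 TPM in replicate 2 (mean 3828 ± 951), the fourth most abundant of the protein-coding genes and 6.42-fold over the next of the 52. Grn encodes progranulin, a secreted precursor that also reaches lysosomes (chromosome 11, 102430315 to 102437048), and was at 398 and 599.9 TPM (499 ± 142). For both genes the library of replicate 2 was higher, and the ranges of the libraries are wide beside the mean. Npc2, the soluble sterol carrier that hands cholesterol to Npc1, was at 176 and 183 TPM, with little difference between the libraries (179 ± 5.15). Gm2a, the activator that presents GM2 ganglioside to hexosaminidase A, was the lowest of the 4 at 29.8 and 34.5 TPM.

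The 7 lipid hydrolases had a median of 45.0 ± 4.53 TPM. Hexa encodes the alpha subunit of hexosaminidase A, which trims GM2 ganglioside (chromosome 9, 59539540 to 59565109), and was at 293 and 343 TPM in replicates 1 and 2. Lipa, the acid lipase that frees cholesterol and fatty acids from lipoprotein lipids (chromosome 19, 34492318 to 34527474), was at 168 and 250.3 TPM. These 2 genes were the only hydrolases among the 52 at 100 TPM or more as a mean. Asah1, acid ceramidase, was at 70.2 and 87.4 TPM, and Gla, which removes terminal galactose from globotriaosylceramide, at 41.8 and 48.2 TPM. Glb1, the beta-galactosidase of GM1 ganglioside, was at 21.0 and 28.1 TPM. Ppt1, which strips palmitate from proteins, was at 17.4 and 19.5 TPM. Smpd1, acid sphingomyelinase, was lowest at 5.97 and 7.43 TPM, and all 7 were higher in replicate 2.

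Enzymes that break down glycoproteins and glycogen had a lower median, 19.9 ± 4.63 TPM over 5 genes. Man2b1, the alpha-mannosidase of N-glycans (chromosome 8, 85083270 to 85098282), led them at 68.8 and 113 TPM in replicates 1 and 2. Fuca1, the alpha-fucosidase, was at 21.0 and 23.2 TPM. Gaa, the acid alpha-glucosidase that degrades glycogen, was at 16.6 and 26.5 TPM, and Neu1, the sialidase, at 15.0 and 20.1 TPM. Manba, the beta-mannosidase that completes N-glycan breakdown, had the second lowest level of the 20 enzymes, at 3.81 and 6.14 TPM. The 2 mannosidases, which act one after the other on the same glycans, thus differed far more from each other than either did between libraries.

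The 7 glycosaminoglycan hydrolases had the lowest median of the enzyme groups, 9.95 ± 0.233 TPM. Gusb, beta-glucuronidase (chromosome 5, 129989011 to 130003049), stood over the rest at 78.1 and 104 TPM in replicates 1 and 2. Naglu, an exoglucosaminidase of heparan sulfate, was at 26.2 and 38.7 TPM, and Galns, a sulfatase of keratan and chondroitin sulfate, at 14.8 and 23.4 TPM. The remaining 4 were all under 11 TPM in both libraries. They were Ids, the iduronate sulfatase (9.78 and 8.88 TPM), Idua, the alpha-iduronidase (7.27 and 10.1 TPM), Sgsh, the heparan sulfamidase (6.87 and 8.74 TPM), and Arsb, arylsulfatase B (3.16 and 4.24 TPM). Arsb was the lowest of all 52 genes (chromosome 13, 93771630 to 93943016). Ids was the only enzyme of the set whose TPM was lower in replicate 2. Tpp1, the single peptidase, which removes tripeptides from the amino end of proteins, was at 50.6 and 68.8 TPM.

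The 10 membrane proteins had a median of 82.9 ± 15.9 TPM, and 5 of them passed 100 TPM. Cd68, a heavily glycosylated protein used as a macrophage marker (chromosome 11, 69664213 to 69666153), was at 534 and 659 TPM in replicates 1 and 2. Lamp1, a main constituent of the lysosomal membrane (chromosome 8, 13159161 to 13175338), was at 481 and 548 TPM. Laptm5, found in blood cells, where it helps send receptors to degradation, was at 321 and 395 TPM. Cd63, a tetraspanin of late endosomes and lysosomes, was at 212 and 267 TPM, and Lamp2 at 102 and 123 TPM. The ranges of Cd68 and Lamp1 overlapped, as those of Laptm5 and Hexa did. Within each library, though, Cd68 was over Lamp1 and Laptm5 over Hexa.

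Transporters, channels and sorting receptors of the membrane were lower. Npc1, which moves cholesterol out of the lysosome, was at 41.3 and 65.5 TPM, below its soluble partner Npc2 in both libraries. Cln3, the membrane protein lost in juvenile Batten disease, was at 27.2 and 30.2 TPM, and Scarb2, which carries glucocerebrosidase to lysosomes, at 22.9 and 32.2 TPM. Mcoln1, a calcium channel, was at 11.8 and 15.1 TPM, and Ctns, the cystine exporter, at 7.01 and 8.42 TPM. All 10 membrane proteins were higher in replicate 2.

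In the order of mean TPM over the 52, the transcription factor Tfe3 stood at place 37, Mitf at 44 and Tfeb at 51. Tfe3 was at 20.8 and 23.7 TPM in replicates 1 and 2, Mitf at 9.53 and 9.81 TPM, and Tfeb at 3.82 and 4.58 TPM (4.20 ± 0.537). Their ranges did not overlap one another, so the order Tfe3, Mitf, Tfeb held in each library. Higher than all 3 factors were 36 of the other genes, and 1, Arsb, was below Tfeb. The level of an mRNA does not show where in the cell its protein is or whether it is active.

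Since these factors bind the CLEAR element, its 8-letter core TCACGTGA and the 6-letter E-box CACGTG it contains were looked for in RefSeq promoter windows (GRCm38.p6, 250 bases before to 50 bases after each gene start). Both motifs read the same on the 2 strands. A window was matched by symbol for 45 of the 52 genes. The core was in 6 of the 45 (13.3%), against 1.12% of all 27025 genes with a window and 2.64% of 6920 protein-coding genes at 1 TPM or more. The E-box, cores included, was in 12 of the 45 (26.7%), against 8.09% and 13.0%. These are descriptions of sequence, with no test and no measure of binding. Because the element is known near the start of many lysosomal genes, a higher share in a list of such genes could be foreseen. The 6 genes with a core include 3 V-ATPase subunits, 2 membrane proteins and 1 hydrolase, and 1 site of each is shown with the core in capitals, read 5′ to 3′ along the gene's own strand:
Atp6v1a: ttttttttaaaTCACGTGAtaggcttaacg
Atp6v0d1: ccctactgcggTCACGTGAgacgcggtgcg
Atp6v0e: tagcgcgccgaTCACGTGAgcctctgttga
Cln3: cacgggtactgTCACGTGAcccccaacctg
Mcoln1: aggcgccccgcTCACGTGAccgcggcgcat
Gla: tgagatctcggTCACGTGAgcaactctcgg
Counted from the RefSeq gene start, the core began 132 bases upstream in Atp6v1a (chr16:44139373-44139402, minus strand), 4 upstream in Atp6v0d1 (chr8:105566050-105566079, minus), 122 upstream in Cln3 (chr7:126583340-126583369, minus) and 46 upstream in Mcoln1 (chr8:3500462-3500491, plus). In Atp6v0e it began 2 bases after the start (chr17:26676387-26676416, plus). Gla held 2 cores, 195 and 228 bases upstream, and the nearer one is shown (chrX:134601182-134601211, minus).

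A CACGTG without the full core was the only match in Lamp1, Glb1, Naglu, Gaa, Sgsh and Atp6v0b. The Lamp1 window held 4 of them within 61 bases of the start, shown here with the E-box in capitals because no other of these windows held so many:
Lamp1, 61 bases upstream: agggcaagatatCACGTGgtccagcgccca
Lamp1, 45 bases upstream: tggtccagcgccCACGTGatgccgactggc
Lamp1, 28 bases upstream: gatgccgactggCACGTGaccacatcacgt
Lamp1, 15 bases upstream: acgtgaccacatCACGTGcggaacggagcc
These lie on chromosome 8, plus strand, from 13159088 to 13159163. The 6 genes with a core had a median level of 51.7 TPM, the 6 with an E-box only 28.5 TPM and the 33 with neither 59.7 TPM, so the median was not higher for genes with a motif in this window.

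The V-ATPase couples a soluble V1 sector, where ATP is split, to a membrane V0 sector, through which protons pass. The medians of the sectors lay close together, 78.9 ± 11.9 TPM for the 5 V0 subunits and 80.5 ± 5.12 TPM for the 8 V1 subunits, with 71.3 ± 15.3 TPM for the 2 accessory proteins. In the V0 sector Atp6v0c, the main proteolipid of the proton-carrying ring (chromosome 17, 24163866 to 24169702), was at 458 and 462 TPM in replicates 1 and 2. Atp6v0b, the second proteolipid of the ring, was at 91.0 and 114 TPM. Atp6v0a1, a large subunit that forms the proton path beside the ring, was at 70.5 and 87.3 TPM. Atp6v0e was at 66.9 and 68.1 TPM, and Atp6v0d1, which links ring and central stalk, at 58.4 TPM in both libraries. The V0 mRNAs thus spanned 7.88-fold, with the ring subunit Atp6v0c alone far over the rest.

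Counted over all transcripts of each gene, the V1 sector was more even, with 4.46-fold between its highest and lowest gene. Of the TPM of its lowest gene, Atp6v1d, 48.9% lay in transcripts annotated as protein-coding, against 99.8% for Atp6v1a. For Atp6v0c and Atp6v0d1, the highest and lowest V0 genes, that share was 99.6% each. On coding transcripts alone the V1 span was therefore wider and passed that of V0, so V1 was more even only over all transcripts. Atp6v1a, the catalytic subunit (chromosome 16, 44085402 to 44139705), was at 128 TPM in each library, and its partner in the catalytic head, Atp6v1b2, at 92.9 and 105 TPM. The stalk subunits Atp6v1g1, Atp6v1e1 and Atp6v1c1 were at 102 and 85.5 TPM, 87.1 and 83.8 TPM, and 63.7 and 59.4 TPM. Atp6v1f and Atp6v1d, which turn in the central shaft, were at 81.2 and 70.0 TPM and at 29.8 and 27.6 TPM. Atp6v1h, a regulatory subunit, was at 33.1 and 35.4 TPM. Atp6ap1 and Atp6ap2, accessory proteins needed to assemble the pump, were at 71.2 and 101 TPM and at 49.6 and 62.7 TPM. No V1 range overlapped that of Atp6v0c.

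Several subunits are encoded by more than one gene, and 10 paralogs outside the 52 were measured the same way. Tcirg1, the a3 form of the a subunit typical of osteoclasts and macrophage lysosomes, was at 69.2 and 101 TPM in replicates 1 and 2, a range that overlapped that of Atp6v0a1. Atp6v0d2, the second d subunit, was at 45.5 and 59.7 TPM and overlapped Atp6v0d1. Atp6v0a2, a Golgi form, was at 3.37 and 3.55 TPM and Atp6v1g2, a neuronal form, at 1.17 and 0.890 TPM. Atp6v0e2 had 2 and 1 counts. Atp6v0a4, Atp6v1b1, Atp6v1c2, Atp6v1e2 and Atp6v1g3, forms known from kidney and testis among other tissues, had 0 counts in both libraries, which allows up to 3 counts per library, against 3303 or more for each subunit of the set. For the a and d subunits 2 genes were thus at like levels, while for e, B, C, E and G a single gene held nearly all of the mRNA. Of 6 osteoclast markers, Acp5 was at 7.07 and 11.4 TPM, higher in replicate 2 as Tcirg1 and Atp6v0d2 were, and the other 5 (Ctsk, Calcr, Oscar, Dcstamp and Ocstamp) were under 1 TPM. Their part in the levels of these paralogs was not tested.

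**Figure D2:**
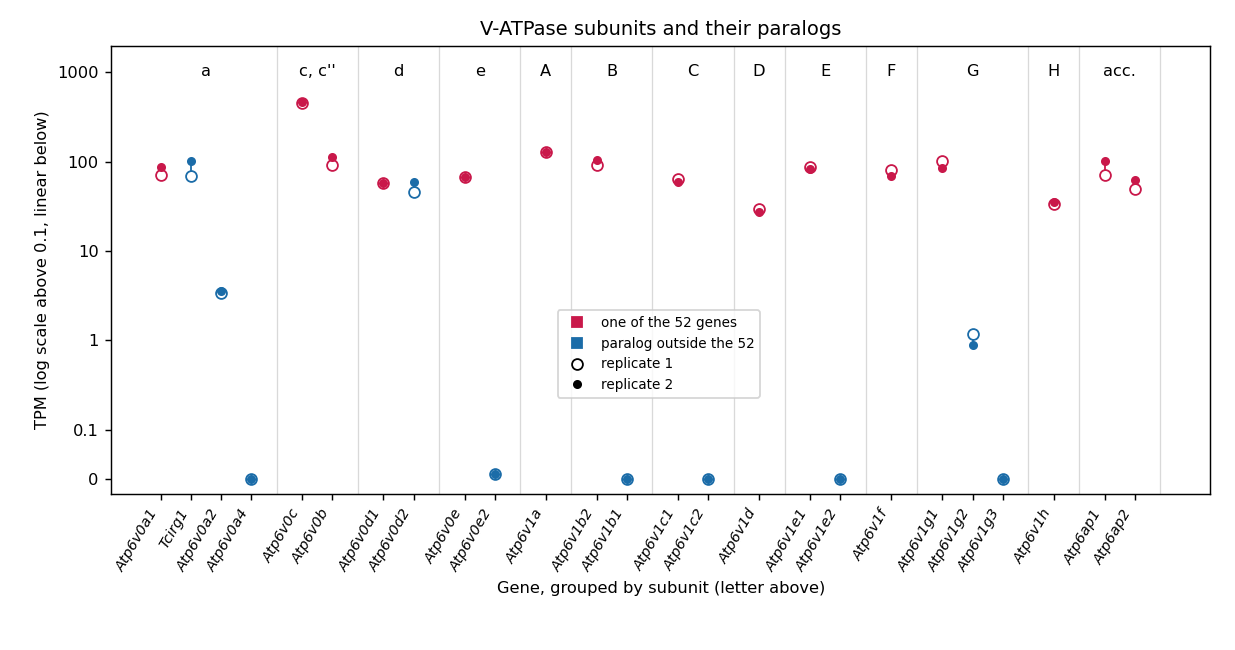
TPM of each V-ATPase subunit gene (log axis above 0.1, linear below), grouped by the subunit letter written above, with genes of the set in red, other paralogs in blue, replicate 1 open and replicate 2 filled. Tcirg1 and Atp6v0d2 sit beside Atp6v0a1 and Atp6v0d1, Atp6v0c stands highest at 458 and 462 TPM, and 5 paralogs lie at 0.

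The transcript tables show which form of each mRNA was present. A leading transcript held over 90% of the gene's TPM in 31 of the 52 genes, against 41.3% of protein-coding genes at 1 TPM or more, and it was the same in both libraries for 51, with Tfeb the exception. The second deposited quantification, made directly from reads, named the same leading transcript for 48, with other leaders for Cln3, Gaa, Lamp2 and Tfeb. Gene levels agreed more closely between the quantifications. On a scale limited to protein-coding genes 50 of 52 lay within 1.25-fold, and Spearman's rho over the 52 genes, which share libraries, was 0.997.

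Lamp2 makes proteins that share the part inside the lysosome and differ in the membrane span and the short cytosolic tail, whose end holds the tyrosine signal that sorts the protein. LAMP-2A is the form known for chaperone-mediated autophagy. The last 39 coding bases of the 3 transcripts, stop codon included, come from alternative last exons and are shown with the final 18 in capitals, which encode the end of the tail:
Lamp2-201 (LAMP-2A): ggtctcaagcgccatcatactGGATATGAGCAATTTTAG
Lamp2-202 (LAMP-2B): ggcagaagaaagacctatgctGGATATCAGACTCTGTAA
Lamp2-203 (LAMP-2C): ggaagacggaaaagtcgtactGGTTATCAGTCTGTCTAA
They lie on chromosome X, minus strand, in mm10, at 38405432 to 38405470, 38421712 to 38421750 and 38402139 to 38402177. Lamp2-201 took 46.1% and 44.9% of the Lamp2 TPM in replicates 1 and 2, and Lamp2-202 took 53.2% and 54.2%. Lamp2-203 took 0.323% and 0.236%, or 74.7 and 54.8 counts. The second quantification gave 50.9% and 49.8% for Lamp2-201 and 48.3% and 49.1% for Lamp2-202. So the A and B tails were at nearly equal levels, the order between them depended on the quantification, and the C tail was rare in both.

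Psap mRNA was assigned to transcripts with different first exons. Psap-202 and Psap-203 differ in the first exon, of 156 and 71 bases, and by 3 bases at the far end of the last. Their coding sequences therefore open differently, as the coding bases of the 2 first exons show, with the start codon in capitals:
Psap-202: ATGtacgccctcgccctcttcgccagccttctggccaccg
Psap-203: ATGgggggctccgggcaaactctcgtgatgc
The first lies at 60277743 to 60277782 and the second at 60284501 to 60284531 on chromosome 10, plus strand. Psap-202 held 51.1% of the Psap TPM in replicate 1 and 61.2% in replicate 2, and Psap-203 held 46.1% and 36.3%. In the second quantification the shares were 58.9% and 70.9% for Psap-202 and 37.7% and 26.0% for Psap-203. In expected counts Psap-202 went from 454245 to 652628 and Psap-203 from 395770 to 373608, a log2 ratio of replicate 2 to replicate 1 of 0.72 for the first and 0.11 for the second after scaling. The excess of Psap in replicate 2 thus lay mostly in Psap-202. The first exon is a small part of either transcript, so the shares rest on the reads that reach it.

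Atp6v0a1 has a short exon that some of its transcripts include. This 18-base exon (chromosome 11, 101054831 to 101054848, plus strand) is shown in capitals with 9 coding bases on either side:
Atp6v0a1-210: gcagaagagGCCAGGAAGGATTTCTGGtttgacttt
Atp6v0a1-202, which lacks it, led with 61.3% and 63.7% of TPM in replicates 1 and 2. Atp6v0a1-210 took 16.2% and 22.4%, but 2.57% and 11.8% in the second quantification, so its share was not settled.

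In 6 of the 52 genes over 10% of TPM lay in transcripts not annotated as protein-coding, against 26.2% of protein-coding genes at 1 TPM or more. The second quantification gave 8 of the 52, against 32.4%, and 4 passed in both. Atp6v1d was the clearest case, with a transcript that keeps an intron, Atp6v1d-202, at 51.2% and 50.3% of TPM in replicates 1 and 2 and at 63.2% and 61.0% in the second quantification. That transcript is short, 775 bases against 3667 for the coding Atp6v1d-201, so its 979 and 753 counts beside 5772 and 4584 make a large share of a length-corrected level. Cln3 was split over many transcripts, the leading one, Cln3-204, at 18.2% ± 1.05 in the first quantification but at 2.16% in the second, where Cln3-203 led with 26.0%. In types other than protein-coding lay 33.7% of its TPM in the first. Fuca1 had 13.5% and 14.9% in Fuca1-205, a processed transcript, and 38.9% and 33.7% in the second quantification. The first of these shares rests on 60.2 and 61.8 counts whose posterior SD was 37.3% and 31.1% of the count, so it was not settled. The quantifications also differed for other genes. Npc1-206, which keeps an intron, was at 39.2% and 33.5% in the first and 12.0% and 3.97% in the second, and Gusb-206, a target of nonsense-mediated decay by its annotation, at 20.4% and 22.3% against 0.587% and 0.569%. Asah1 had 2.16% outside coding types in the first and 35.4% in the second.

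Among the transcription factors, Mitf-202 held 81.1% and 76.4% of the Mitf TPM. Tfeb was divided between Tfeb-202, with 1425 coding bases, at 48.3% and 46.7%, and the shorter Tfeb-212, with 1002, at 47.5% and 50.2%. The second quantification gave Tfeb-202 62.0% and 56.9%. Tfe3-204 led its gene with 33.6% and 26.5%. Gaa-201 and Gaa-203 code for the same protein and differ before it, and the quantifications placed different ones first, at 51.1% and 53.7% for Gaa-201 in the first and 64.6% and 59.5% for Gaa-203 in the second.

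**Figure D3:**
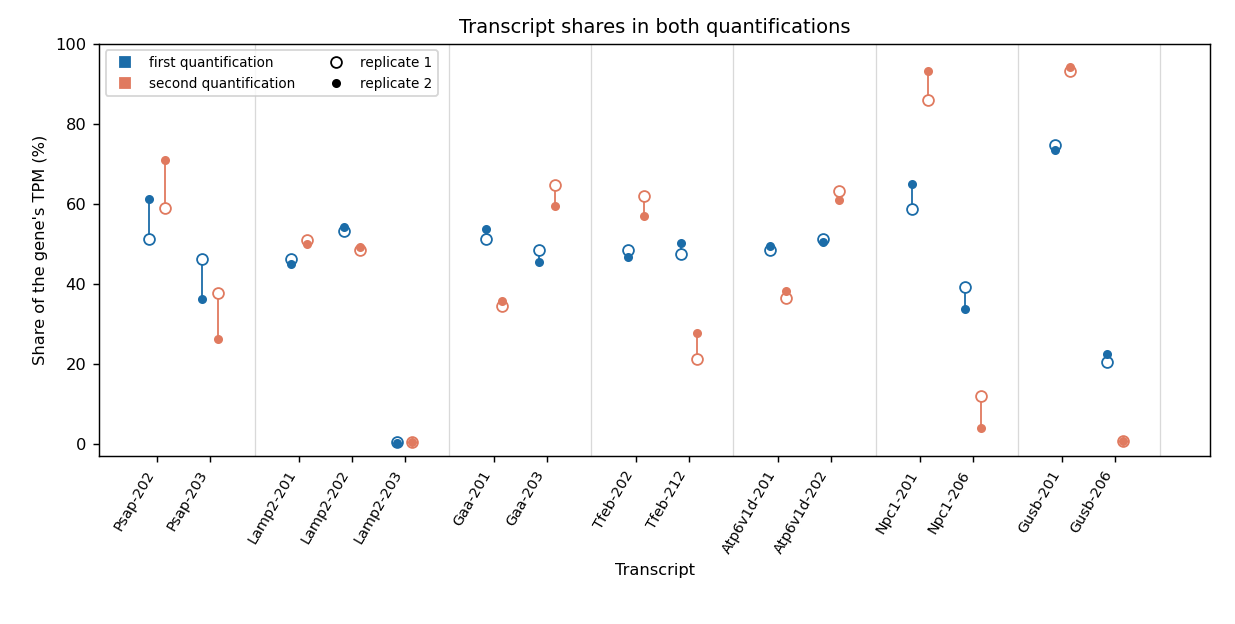
Share of the gene's TPM (%) in chosen transcripts of 7 genes, with the first quantification in blue and the second in orange, replicate 1 open and replicate 2 filled. The Lamp2 tails A and B lie near each other in both, Psap-202 is higher in replicate 2 in both, and the shares of Npc1-206 and Gusb-206 fall from over 20% in blue to under 13% in orange.

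How far the libraries differed varied with the role of the genes. After scaling counts between libraries by TMM (trimmed mean of M values), 40 of the 52 genes were higher in replicate 2 and 12 lower, while 45.5% of the 10091 genes tested, those whose counts averaged at least 100, were higher and 54.5% lower. The median log2 ratio of replicate 2 to replicate 1 was 0.24 over the 52 and -0.02 over all genes tested. Past 1.5-fold, 4 of the 52 were higher in replicate 2, against 3.53% of tested genes, and 0 were lower, against 1.32%. The genes tested were of every annotated type. Among them were 9686 nuclear-encoded protein-coding genes (median -0.03), of which 214 were higher past 1.5-fold and 113 lower. With 1 ratio per gene and no group to compare, these are descriptions with no test.

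The 4 genes past 1.5-fold were Npc1, at 17895 and 25212 expected counts in replicates 1 and 2 (1.61-fold after scaling, 95% counting interval 1.58 to 1.64), Man2b1 at 28006 and 39106 (1.60-fold, 1.57 to 1.62), Galns at 3872 and 5233 (1.55-fold, 1.48 to 1.61) and Gaa at 6297 and 8404 (1.53-fold, 1.48 to 1.58). The intervals reflect counting alone and treat fragments as if each were its own molecule. Next came Manba (log2 ratio 0.57), Lipa (0.52), Grn (0.52) and Naglu (0.51), none past the fold. With counts scaled by library totals Galns (1.498-fold) and Gaa (1.48-fold) fell short of 1.5, as they did in the second quantification (1.46-fold and 1.44-fold), where Npc1 (1.52-fold) and Man2b1 (1.51-fold) stayed just past it. Replicate 2 was the higher library for 19 of the 20 enzymes, hydrolases and peptidase counted together (median 0.37), with Ids at -0.25 and 18 of 20 higher in the second quantification, and for 10 of 10 membrane proteins (0.25).

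The pump's sectors did not share this. Of the 8 V1 subunits, 6 were lower in replicate 2, with a median of -0.12, and Atp6v1g1 (-0.30) and Atp6v1f (-0.26) were the lowest ratios of all 52. The V1 median was negative, and below that of all genes tested, under each of the 6 scalings and quantifications tried, from -0.20 to -0.08. The V0 median was -0.02 and changed sign with the scaling (-0.07 to 0.06), with Atp6v0a1 at 0.35 and Atp6v0b at 0.24 over the rest. The median of all genes tested changed sign too (-0.09 to 0.03). In the second quantification V0 was at 0.06 and all genes at -0.09. Atp6ap1 (0.45) and Atp6ap2 (0.28) were both higher in replicate 2.

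The genes can also be grouped by where their products are made, but this grouping was drawn from the same ratios, so its counts are a description and support nothing. The 12 genes whose proteins are made on free ribosomes (the V1 subunits, Atp6v0d1 and the 3 transcription factors) had 4 members higher in replicate 2, Atp6v1b2, Atp6v1h, Tfeb and Tfe3, a share not far from the 45.5% of all genes tested. Their median was -0.06, with 2 to 7 higher and medians from -0.14 to 0.00 across scalings and quantifications. The other 40, whose proteins have a signal peptide or a membrane span and are made at the endoplasmic reticulum, had 36 higher and a median of 0.29, with 36 to 39 higher and medians from 0.21 to 0.33. The exceptions among the 40 were Ids, Npc2, Atp6v0c and Atp6v0e, the last 3 within 0.04 of no difference.

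Other genes of the pathway were listed by role, but earlier results of these data were known when the lists were made. Their counts are therefore a description and not an independent repeat. Of 20 further lysosomal enzymes and partners, 20 were at 1 TPM or more and 20 were higher in replicate 2 (median 0.35). Among the abundant ones were Ctsa, the protective protein of the sialidase complex (232 and 352 TPM), and Glmp, a glycoprotein of the lysosomal membrane (64.9 and 87.9 TPM). All 6 genes of mannose phosphate tagging and sorting were higher in replicate 2 (median 0.37), led by the receptors M6pr (55.1 and 70.5 TPM) and Igf2r (13.4 and 24.1 TPM) and the transferase Gnptab (9.43 and 12.0 TPM). Of 14 genes that control mTORC1 and TFEB at the lysosomal surface, 3 were higher and 11 lower in replicate 2 (median -0.18). The 3 were Mtor, the kinase (0.24), Rptor, its partner that binds substrates (0.21), and Slc38a9, an arginine sensor (0.19). Rragc, a GTPase that recruits mTORC1, was at 53.6 and 49.5 TPM, and the scaffold subunits Lamtor1 and Lamtor3 at 47.2 and 45.0 TPM and at 34.2 and 31.4 TPM.

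Of 16 further membrane and associated proteins, 14 reached 1 TPM, and 10 of 15 with enough counts were higher in replicate 2 (median 0.15), with Tmem192 (-0.17) and Tmem106b (-0.13) the lowest ratios. Slc11a1, the metal transporter of phagosomes, was at 61.7 and 91.1 TPM, Laptm4a at 65.0 and 64.6 TPM and Cd164, a mucin-like sialoprotein, at 41.9 and 42.7 TPM. Under 1 TPM were Abcb9, a peptide transporter (0.350 and 0.480 TPM), and Lamp3, the LAMP family member of dendritic cells, which had 0 counts in both libraries.

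**Figure D4:**
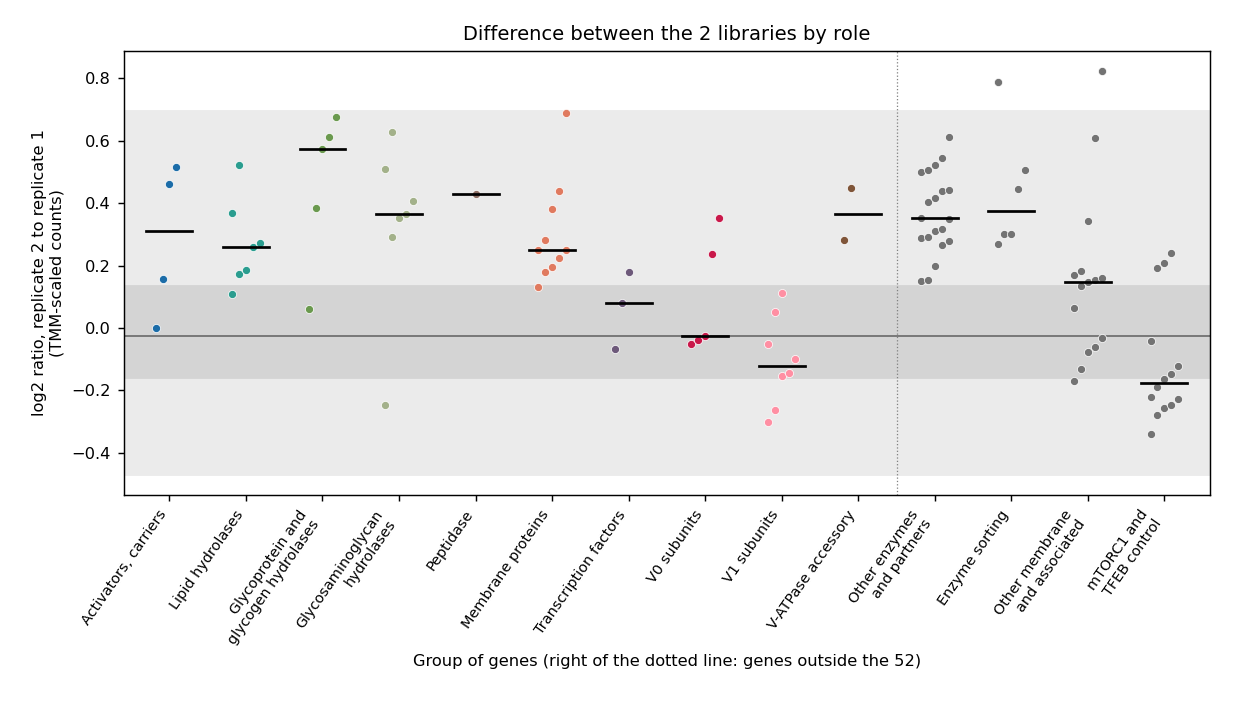
The log2 ratio of replicate 2 to replicate 1 of TMM-scaled counts for each gene (points) by role, with the median of each group as a black bar; the grey line is the median of the 10091 genes tested (-0.02) and the bands hold the middle 50% and 95% of them. Enzymes, membrane proteins and sorting genes lie mostly over the line, and V1 subunits (median -0.12) and mTORC1 and TFEB control genes (-0.18) mostly under it.

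Other values moved between the same libraries, and their part in these ratios was not tested. Malat1 and Neat1 had log2 ratios of 2.23 and 2.02, and the 7SL share of TPM was lower in replicate 2, as given above. Of the 8 macrophage markers 7 were higher in replicate 2 (median 0.32), and the summed level of 6 neutrophil markers went from 2.23 to 4.38 TPM and that of 6 osteoclast markers from 7.89 to 12.5 TPM. Over the 52 genes, all measured in the same 2 libraries, the ratio had a Spearman's rho of 0.36 with the length and 0.33 with the GC content of the leading transcript, and over 9681 protein-coding genes 0.21 and 0.25. The V1 subunits had shorter leading transcripts poorer in GC (medians 1680.5 bases and 46.7%) than the hydrolases and the peptidase (2871 bases and 53.4%).

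Within the first quantification, reads were assigned to most of the 52 with little doubt. The deposited posterior SD of the count was at most 0.151% of the count, save for Arsb at 1.68%. It does not cover differences between quantifications. On the protein-coding scale Cln3 and Fuca1 were past 1.25-fold higher in the second (log2 ratios to the first of 0.53 and 0.34), so their levels are less certain. Exons of 13 genes overlap exons of another gene, and since the strand used in counting is not given, reads of such pairs could have been exchanged. The neighbour on the opposite strand had many counts for Ppt1 (Cap1, 521% of the Ppt1 count), Cln3 (Apobr, 186%), Idua (Dgkq, 17.8%) and Arsb (Gm26527, 12.5%), and on the same strand for Glb1 (Tmppe, 7.30%), so the levels of these 5 are less certain. Pseudogene copies of Atp6v0c and Cd63 held at most 111 counts in a library.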

How the data were processed

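Per the deposited readme files, tables use genome build mm10 and annotation GENCODE M21. The first quantification, from transcriptome alignments, gives expected counts and TPM deposited by the authors for genes and transcripts, with a posterior SD of each count; the second, made directly from reads, gives the authors' estimated counts and TPM per transcript, summed here per gene. Which quantifiers were used, and the strand, is not given in the sources used here. Of the count, 0.251% and 0.204% lay in 26345 entries with no gene identifier, which were left out.

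Levels are deposited TPM (mean ± SD, n = 2). Ratios used expected counts divided by TMM factors, which were computed on rounded counts of genes averaging at least 10 (edgeR 4.0.16, R 4.3.3), plus 0.5, where counts averaged at least 100. DESeq2 1.42.0 gave alternative size factors. Intervals are 95% Clopper-Pearson. Calculations (Python 3.11.15) were tested on simulated data. Named are all 52 genes, of each further list the 3 most abundant and those under 1 TPM (some genes are not reported here), and marker genes by level; other marker, transcript and neighbouring genes were named after their values were seen. The genes, lists and roles were chosen with earlier results of these data known. No protein sequences were used.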

Additional observations from a re-analysis of the deposited data

How the results depend on the processing

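No paired analysis was possible because the study has 1 group. All 52 genes were at 1 TPM or more under every scale, quantification and left-out library tried; levels themselves depend on what a table counts. On TPM rescaled over protein-coding genes 38 of the 52 reached 100 TPM and in the second quantification 8. Median levels on the rescaled and second scales were 256 and 23.9 TPM for the 52, 363 and 39.6 for V0, 371 and 35.4 for V1, and 44.5 and 4.91 for the transcription factors. Leaving out 1 library gave medians from 50.1 to 61.1 TPM for the 52. The median log2 ratio was 0.20 with total counts (all genes -0.07), 0.30 with deposited TPM (0.03), 0.28 with rescaled TPM (0.02) and 0.16 in the second quantification (-0.09); 38 to 46 of the 52 were higher in replicate 2. DESeq2 size factors and other count filters left each count within 1.5 times. Genes over 1.5-fold higher numbered 2 with total counts and 2 in the second quantification (Npc1 and Man2b1 in both), and 0 were past 2-fold. Shares of Npc1-206 and Gusb-206 moved more between quantifications than between libraries, while those of Psap moved about as much between libraries; the cause was not tested.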
